A study of Mus musculus with 16 samples.

Results

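The proteasome was followed in mIMCD3 cells, a mouse inner medullary collecting duct line, through all gene symbols that start with Psma, Psmb, Psmc, Psmd, Psme, Psmf or Psmg and a digit. Pseudogene symbols, which carry "-ps", were left out, and 5 such symbols were dropped. The rule took 50 of the 55367 genes listed: 8 Psma, 11 Psmb, 7 Psmc, 14 Psmd, 5 Psme, 1 Psmf and 4 Psmg. Of these, 49 passed the filter on low counts and were tested among 19509 genes. The remaining member, Psma8, which encodes the testis form of an alpha subunit, had 0 counts in all 16 libraries. A further symbol that the rule takes, Psmc3ip, encodes a cofactor of meiotic recombination and is not a proteasome subunit. Its values are given apart where it is named.

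RNA sequencing compared wild-type (WT) cells pretreated with DMSO, the solvent, or with sulforaphane (SFN), an Nrf2 activator, in isosmotic medium and after hyperosmotic stress (HS) of 1 h or 6 h. Nrf2-/- cells were pretreated with SFN and kept isosmotic or stressed for 1 h. Each of the 8 groups held 2 libraries, given by the study as biological replicates, with 34484296 to 50774875 counts per library. The Nrf2-/- line was made with lentiviral Cas9 and a guide under drug selection, and whether it is 1 clone is not given in the sources used here. The loss of Nrf2 therefore cannot be told apart from other differences between the lines. The SFN dose used for sequencing is likewise not given in those sources, but viability assays used SFN at 10 µM, and in the compound screen cells were pretreated for 5 h and the hyperosmotic medium, at 600 mOsm, was made with sodium chloride and urea. Nrf2-/- cells without SFN, or at 6 h, were not analysed here.

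Nfe2l2, the gene of Nrf2, had 2496 to 5013 counts in WT libraries and 386 to 433 in Nrf2-/- libraries, with a log2 fold change of -2.67 ± 0.10 (SE) in isosmotic SFN. Krt8, a keratin of simple epithelia, had 24206 to 50152 counts, whereas Aqp2, which defines principal cells of the collecting duct, had 0 to 11 counts. The 2 Nrf2-/- libraries at 1 h stood apart from each other, with a biological coefficient of variation of 0.328 against 0.039 to 0.126 for the other groups. Because all 16 libraries shared 1 estimate of spread per gene, this pair bears on every test. Counts of members called are therefore also given without it. Shares of all genes called are those of the fit with all 16 libraries. Counts from other fits have no such share beside them and cannot be set against it.

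The 26S proteasome degrades proteins tagged with ubiquitin. Its 20S core is a barrel of alpha and beta rings with the proteolytic sites on 3 beta subunits, and its 19S cap holds a base of ATPases that unfold substrates and non-ATPase subunits that bind ubiquitin chains or remove them. Dedicated chaperones assemble both parts, and alternative activators (11S and PA200) or catalytic subunits replace the standard ones in some settings. Subunit genes are known targets of NFE2L1, and some of them of Nrf2, both of which bind antioxidant response elements.

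Promoter windows from RefSeq (build GRCm38.p6, 250 bases before to 50 after the annotated start) were matched for 42 members, as 45 windows. The core of the antioxidant response element, searched as TGACNNNGC on both strands, was present in 6 of the 45 windows (13.3%) and in 12.4% of all 32851 windows. The 6 belonged to Psmb5, Psmb6, Psmc6, Psmd9, Psmd12 and Psme4. The share among members thus lay close to that of all promoters. A heat shock element half-site pair, TTCNNGAA, was found in 4.44% of member windows against 8.52% of all, and the tonicity element, searched as GGAAA followed by any 4 bases and C, in 11.1% against 18.7%. These matches describe letters and not binding. The windows below are those of 2 catalytic subunits (Psmb5, Psmb6), of the member that rose most at 6 h among those of ample counts (Psmd5, no match), of a cap subunit that fell at 6 h (Psmd12), and of the activator that was higher in Nrf2-/- cells (Psme4), and capitals mark the element on either strand. Psmb5 lies at chr14:54617946-54618245 (minus strand), Psmb6 at chr11:70525107-70525406 (plus), Psmd5 at chr2:34870913-34871212 (minus), Psmd12 at chr11:107479278-107479577 (plus) and Psme4 at chr11:30771525-30771824 (plus). Each is written along its gene, and the first base of the match stood at -47 in Psmb5, -9 in Psmb6, -247 in Psmd12 and -7 in Psme4 from the start.
Psmb5: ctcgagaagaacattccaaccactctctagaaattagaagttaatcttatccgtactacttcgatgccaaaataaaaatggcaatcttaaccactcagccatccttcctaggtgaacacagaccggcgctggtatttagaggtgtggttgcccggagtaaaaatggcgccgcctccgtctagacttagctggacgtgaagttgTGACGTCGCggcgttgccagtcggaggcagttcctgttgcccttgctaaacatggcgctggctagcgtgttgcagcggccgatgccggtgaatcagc
Psmb6: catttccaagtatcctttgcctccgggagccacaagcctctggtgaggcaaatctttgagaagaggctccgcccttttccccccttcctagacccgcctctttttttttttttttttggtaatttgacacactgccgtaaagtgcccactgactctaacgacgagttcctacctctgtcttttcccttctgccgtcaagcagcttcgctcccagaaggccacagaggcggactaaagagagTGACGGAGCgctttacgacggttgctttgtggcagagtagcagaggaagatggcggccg
Psmd5: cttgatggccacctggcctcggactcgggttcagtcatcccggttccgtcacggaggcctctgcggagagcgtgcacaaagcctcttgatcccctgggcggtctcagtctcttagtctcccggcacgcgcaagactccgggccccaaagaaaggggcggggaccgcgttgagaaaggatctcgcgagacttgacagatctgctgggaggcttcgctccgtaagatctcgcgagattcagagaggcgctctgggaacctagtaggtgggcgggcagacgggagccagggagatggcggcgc
Psmd12: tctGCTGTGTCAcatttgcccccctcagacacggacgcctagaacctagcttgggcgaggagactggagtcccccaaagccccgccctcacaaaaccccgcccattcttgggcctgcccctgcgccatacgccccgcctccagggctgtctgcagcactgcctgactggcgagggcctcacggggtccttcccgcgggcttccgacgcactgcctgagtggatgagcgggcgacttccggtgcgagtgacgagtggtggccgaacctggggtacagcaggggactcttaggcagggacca
Psme4: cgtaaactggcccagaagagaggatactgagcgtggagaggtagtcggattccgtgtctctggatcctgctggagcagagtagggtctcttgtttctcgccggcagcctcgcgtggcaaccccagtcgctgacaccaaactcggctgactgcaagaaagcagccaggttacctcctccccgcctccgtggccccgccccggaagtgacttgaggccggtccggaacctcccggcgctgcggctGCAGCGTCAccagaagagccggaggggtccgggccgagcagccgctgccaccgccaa

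In unstressed WT DMSO cells, all standard subunits of the core and the cap were expressed within about the same range. Levels were taken as CPM (counts scaled to library size) per kilobase of the longest principal transcript. Means ran from 62.1 (Psma3) to 273 (Psma7) over 7 alpha subunits and from 90.0 (Psmb5) to 381 (Psmb3) over 7 beta subunits. The length chosen bears on these ranks, since Psma3 was divided by 2846 bases and Psma7 by 914. In CPM without length, Psma3 (176.7) stood above Psma4 (110.8). The 6 base ATPases lay between 64.6 (Psmc6) and 212 (Psmc5), and the 11 non-ATPase subunits between 65.2 (Psmd13) and 229 (Psmd2). The median levels of these 4 classes were 157, 185, 151 and 124. Among the highest, Psmb3 (381 ± 42.0, SD, n = 2) and Psmb4 (355 ± 39.0) did not differ beyond their spread. Chaperones were lower, between 15.1 (Psmd10) and 48.0 (Psmg2), and the inhibitor Psmf1 stood at 13.6.

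The interferon-linked catalytic subunits, which replace the standard ones in the immunoproteasome, were nearly absent with 1 exception. Per unit length, Psmb8 reached at most 1.13% of its standard counterpart Psmb5 in any library, and Psmb9 at most 0.567% of Psmb6. Psmb10 stood at 6.92% to 12.9% of Psmb7. The thymus-specific Psmb11 had 0 counts in both isosmotic DMSO libraries.

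Among WT cells most calls came with 6 h of hyperosmotic stress. In DMSO-pretreated cells 20 of 49 tested members were called at an adjusted p under 0.05, 4 higher and 16 lower, and in SFN-pretreated cells 21, 4 higher and 17 lower. These shares are near those of all genes tested, of which 45.9% were called in DMSO and 47.6% in SFN. The direction was uneven, however: 32.7% of members were lower in DMSO and 34.7% in SFN, against 22% and 22.9% of all genes. The median member log2 fold change was -0.23 and -0.11 against 0.05 and 0.09 for all genes. Between replicates the median log2 CPM of the members had an SD of 0.122, pooled over groups. In the isosmotic DMSO pair 42 of 49 members were higher in replicate 2, with a median log2 difference of 0.17. This spread bears on each member median given here. The same 4 members rose with both pretreatments, namely Psmd5, Psmd2, Psmb9 and Psmb11. Of these, Psmb11 passed the filter on low counts through its stressed libraries. Of the members that fell, 15 were shared, which is 93.8% of the DMSO list and 88.2% of the SFN list. The same overlap over all genes was not counted, so these shares do not set the members apart. Between SFN and DMSO at 6 h only 0.041% of all genes were called. CPM is a share of all counted RNA, so in these bulk samples fewer cells of a type and less RNA per cell cannot be told apart.

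**Figure D1:**
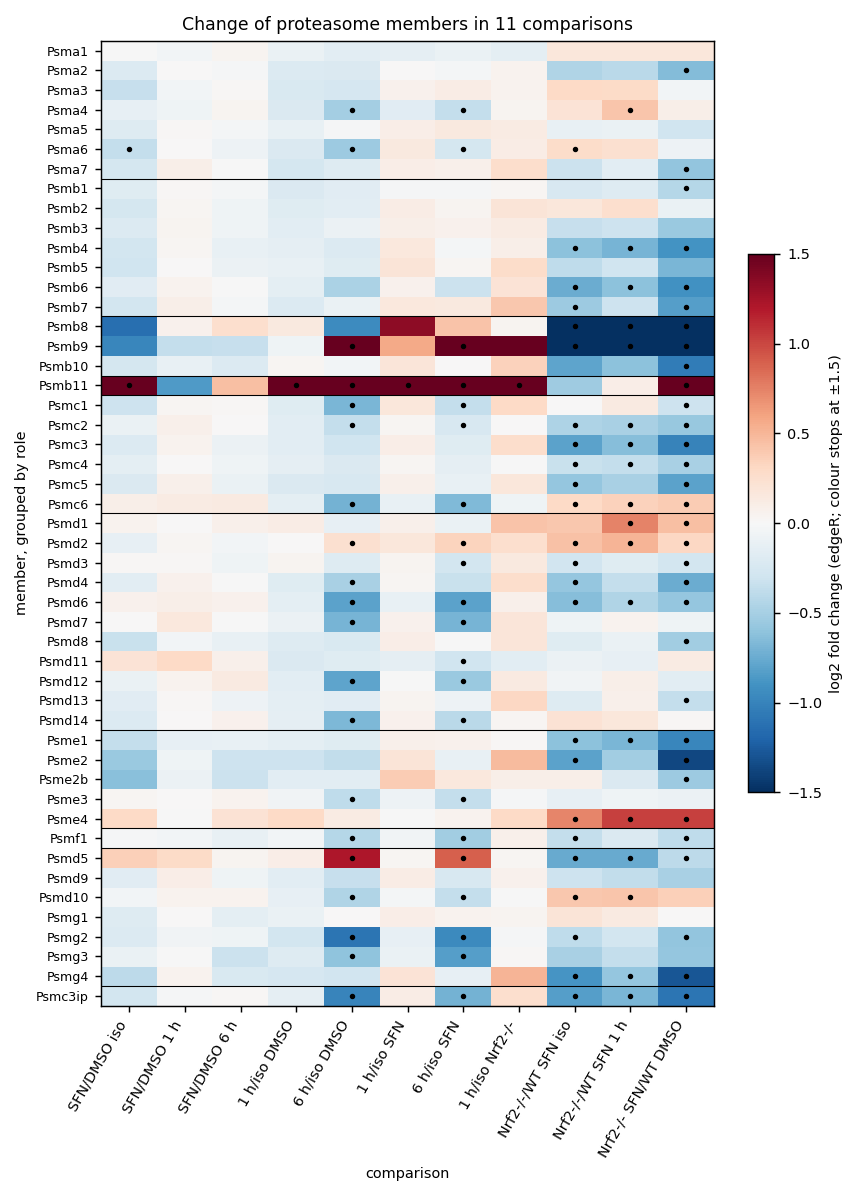
Log2 fold changes (edgeR, colour) of the 49 tested members, in rows grouped by role, over 11 comparisons in columns, with black dots where the adjusted p was under 0.05. The 6 h columns hold 20 and 21 dots, of which 8 and 9 lie on cap subunits that fell (blue), and the first 3 columns (SFN against DMSO) hold 2, 0 and 0.

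Psmd5, a chaperone of the 19S base, rose most among members with ample counts. Its level was 88.8 and 92.6 CPM in isosmotic DMSO libraries and 202 and 219 CPM after 6 h. With SFN it was 111.5 and 122 CPM isosmotic and 210 and 223 CPM at 6 h. All 4 stressed libraries stood above all 4 isosmotic ones. The fold was 2.32 in DMSO (log2 1.22 ± 0.11, SE, edgeR adjusted p = 6.39e-07) and 1.86 in SFN (0.89 ± 0.11, adjusted p = 9.43e-06), and the call held in each of 16 fits that left out 1 library. At 1 h no such rise was seen, with 99.7 and 94.7 CPM in DMSO and 122 and 115 CPM in SFN.

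Psmd2, the cap subunit with the highest level per kilobase, rose slightly. It moved from 651 and 704 CPM to 803 and 802 CPM in DMSO and from 604 and 635 CPM to 785 and 777 CPM in SFN. The groups did not overlap, and the folds were 1.18 and 1.26 (edgeR adjusted p = 0.0343 and 0.00603). In DMSO this call held in 4 of 16 fits with 1 library left out (each of the 4 Nrf2-/- omissions) and in SFN in 15, failing without isosmotic SFN replicate 1.

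The other chaperones moved apart from Psmd5. Psmg2, which starts alpha ring assembly together with Psmg1, fell from 48.3 and 53.3 CPM to 23.4 and 24.0 CPM in DMSO, the largest fall of any member (log2 -1.10 ± 0.14, edgeR adjusted p = 1.72e-05). In SFN it fell from 44.1 and 43.9 CPM to 24.3 and 21.0 CPM (log2 -0.96 ± 0.14). Its partner Psmg1 was at 38.1 and 44.1 CPM and then 39.9 and 42.5 CPM in DMSO, groups that overlapped, with a log2 fold change of 0.00 ± 0.13. Psmg3, which acts with Psmg4 on the alpha ring, fell from 13.8 and 13.7 CPM to 9.07 and 9.02 CPM in DMSO and from 14.6 and 11.1 CPM to 6.52 and 8.01 CPM in SFN. Its call was lost in 12 of 16 leave-one-out fits in DMSO and in 2 in SFN. Psmd10, a further base chaperone, fell from 22.4 and 20.9 CPM to 15.2 and 16.4 CPM (DMSO) and from 21.9 and 20.1 CPM to 18.0 and 14.6 CPM (SFN), the latter call being lost in 11 of 16 such fits. Psmg4 (log2 -0.29 and -0.12) and Psmd9 (-0.34 and -0.24) did not pass in either pretreatment.

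Of the members that fell at 6 h, 8 of 16 in DMSO and 9 of 17 in SFN belonged to the 19S cap. With all 16 libraries, 8 of its 17 base and non-ATPase subunits fell in DMSO and 9 in SFN. Of 14 standard core subunits only Psma4 and Psma6 fell in that fit, in both pretreatments. No fold change of a core subunit was compared with one of the cap by a test, so these are counts within each class. They depend on the fit: without the Nrf2-/- 1 h pair 32 members were lower in DMSO and 21 in SFN. The core subunit Psmb6 was among them in both. The median log2 fold change was -0.30 and -0.27 for the cap and -0.19 and 0.01 for the core. Within the cap, Psmd6, a non-ATPase subunit of the lid, fell from 143 and 164 CPM to 86.3 and 89.5 CPM in DMSO and from 162 and 159 CPM to 92.0 and 91.8 CPM in SFN. Both log2 fold changes were -0.80 ± 0.09 (edgeR adjusted p = 6.31e-06 in DMSO). Psmd12, another lid subunit, went from 225 and 247 CPM to 136 and 137 CPM and, in SFN, from 221.5 and 220 CPM to 150 and 150.5 CPM (log2 -0.79 ± 0.08 and -0.55 ± 0.08). Neither gene had a stressed library within the range of its isosmotic libraries. Psmd7 and Psmd14, which together form the deubiquitinating pair of the lid, fell by 0.70 and 0.67 on the log2 scale in DMSO and by 0.70 and 0.41 in SFN. Of the ATPases, Psmc6 (log2 -0.70 and -0.66), Psmc1 (-0.69 and -0.35) and Psmc2 (-0.36 and -0.24) fell in both, the SFN call of Psmc2 holding in 4 of 16 leave-one-out fits. Psmd4, a ubiquitin receptor, passed only in DMSO (-0.48), and Psmd3 and Psmd11 only in SFN (-0.27 and -0.30). Their differences between pretreatments were not called.

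**Figure D2:**
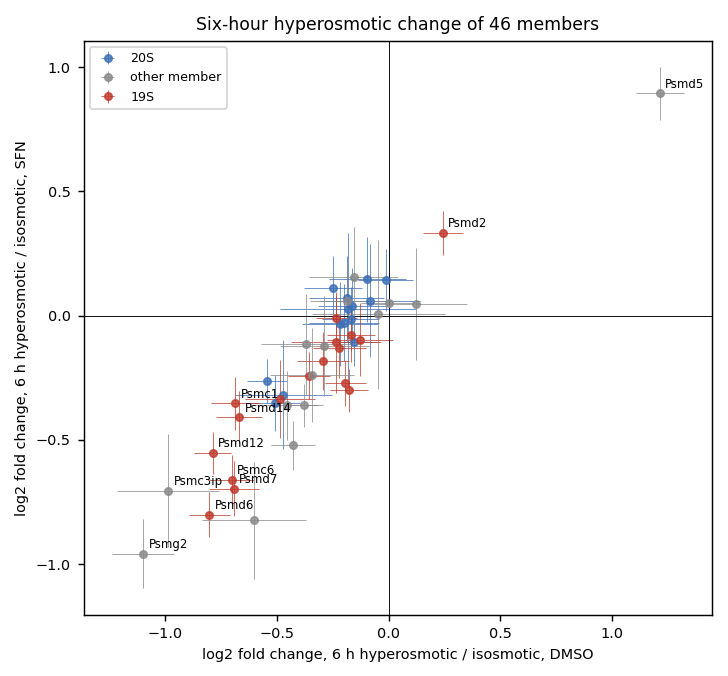
Log2 fold change at 6 h of hyperosmotic stress against isosmotic in DMSO (x axis) and in SFN (y axis) for 46 members, with SE as bars and colours for 20S core, 19S cap and other members; Psmb8, Psmb9 and Psmb11 are left out for their low counts. Psmd5 lies alone at the upper right (1.22, 0.89), and Psmg2, Psmd6, Psmd7, Psmd12 and Psmc6 lie at the lower left.

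With all 16 libraries none of the 7 standard beta subunits was called at 6 h with either pretreatment, by edgeR or by DESeq2. At an unadjusted p under 0.05 there was 1 in DMSO and 0 in SFN, against 10184 and 10485 of 19509 genes. Psmb5, the chymotrypsin-like site, was at 76.1 and 85.7 CPM in isosmotic DMSO and 72.2 and 70.3 CPM at 6 h (log2 -0.18 ± 0.31). Psmb6, the caspase-like site, was at 229 and 266 CPM and then 178 and 179 CPM, and in SFN at 242 and 199 CPM and then 171 and 183 CPM. Its groups did not overlap with either pretreatment. Psmb7, the trypsin-like site, was at 201 and 229 CPM and then 199 and 204 CPM, and the groups overlapped. Without the Nrf2-/- 1 h pair, members lower at 6 h numbered 32 in DMSO and 21 in SFN, and Psmb6 was then among them in both. With the 12 WT libraries alone the numbers were 28 and 20. All 16 and 17 members lower with all libraries were among the 32 and 21. The larger counts in DMSO came without replicate 1 (38 called) or replicate 2 (34) of that pair alone. In SFN, 12 were called without isosmotic SFN replicate 1 and 13 without SFN 6 h replicate 1.

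Among activators and inhibitors, Psme3 and Psmf1 fell and the others did not pass. Psme3, the nuclear 11S activator, fell from 305 and 318 CPM to 237 and 243 CPM in DMSO and from 316 and 322 CPM to 252 and 245 CPM in SFN (log2 -0.38 and -0.36, both ± 0.09). Psmf1, which inhibits the core, fell from 49.8 and 53.6 CPM to 38.0 and 38.8 CPM in DMSO and from 51.2 and 50.6 CPM to 34.9 and 36.1 CPM in SFN. Psme1, Psme2, Psme2b and Psme4 did not pass in either pretreatment, with log2 fold changes between -0.37 and 0.15. Psmc3ip, no subunit, fell from 32.5 and 36.1 CPM to 16.9 and 17.7 CPM in DMSO and from 30.7 and 26.2 CPM to 17.2 and 17.7 CPM in SFN, and its exons overlap those of Mlx on the other strand.

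Psmb9 and Psmb11 were called higher at 6 h from few counts. Psmb9 had 14 and 25 counts in isosmotic DMSO libraries and 59 and 34 at 6 h, and with SFN 10 and 10 and then 35 and 37. Its fold was 3.09 and 4.82, and its call in DMSO was lost without isosmotic DMSO replicate 1 or 6 h DMSO replicate 1. Psmb9 exons overlap those of Tap1 on the opposite strand, and with an unstated strand setting reads of the 2 genes cannot be told apart. Psmb8, its neighbour in function, had 57 and 50 counts and then 32 and 11 in DMSO and did not pass (log2 -0.95 ± 0.58). Psmb10 did not pass either. Counts were found for 22583 to 25115 genes in stressed libraries and for 20312 to 21797 in isosmotic ones. The part of this difference in the Psmb11 values was not tested. Psmb11 had 0 counts in isosmotic DMSO, 56 and 65 at 1 h and 26 and 13 at 6 h. Against the floor of 3 counts per library it was at least 21.7-fold higher at 1 h and at least 8.38-fold higher at 6 h. It passed the filter on low counts through its stressed libraries, so these calls and folds are not independent of that filter. With SFN it had 10 and 8 counts isosmotic, 29 and 36 at 1 h and 35 and 18 at 6 h, and in Nrf2-/- cells 7 and 3 and then 38 and 24. Among markers of the thymus and testis, Foxn1 had 49 to 114 counts in WT and 190 to 241 in Nrf2-/- libraries, Aire had 0 to 4, and Tnp1 had 0 in all. Prm1, a protamine of sperm, had 2 and 1 counts in isosmotic DMSO and 22 and 24 at 6 h, and with SFN 0 and 5 and then 21 and 27. It was called higher at 6 h with both pretreatments, and Foxn1 was with SFN. The 5 markers summed to 2.96 to 3.97 CPM at 6 h, 1.00 to 2.72 CPM in the other WT groups and 5.24 to 7.28 CPM in Nrf2-/- cells, and their part in the Psmb11 values was not tested.

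Genes that mark other cell types also moved at 6 h, from very low levels. Ptprc had 132 to 196 counts at 6 h and 0 to 20 in all other libraries. The summed level of 6 immune markers was 14.1 to 17.8 CPM at 6 h against 3.81 to 9.98 CPM in the other groups, with Cd3e at 0 counts in all 4 libraries at 6 h. The 5 endothelial markers summed to 4.54 to 5.79 CPM against 0.0477 to 1.05 CPM. The 4 proximal tubule markers summed to 21.2 to 27.5 CPM against 2.50 to 12.7 CPM. The 6 fibroblast markers summed to 4.86 to 7.32 CPM at 6 h against 2.11 to 5.08 CPM elsewhere. Their part in the members' changes was not tested.

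**Figure D3:**
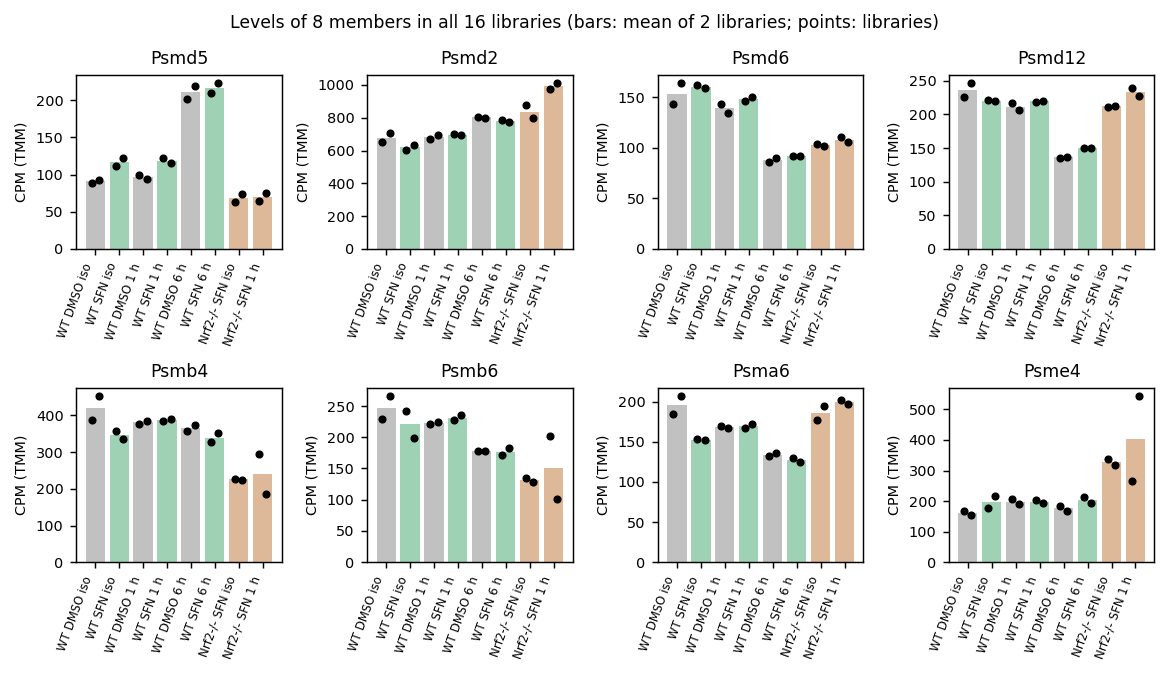
Levels of Psmd5, Psmd2, Psmd6, Psmd12, Psmb4, Psmb6, Psma6 and Psme4 in CPM on linear axes from 0, one panel per gene, with a bar for the mean of the 2 libraries of each of 8 groups and a point for each library (grey DMSO, green SFN, brown Nrf2-/-). Psmd5 is highest and Psmd6 and Psmd12 are lowest in the 6 h groups, and Psme4 is highest in the Nrf2-/- groups with a wide gap at 1 h.

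Hyperosmotic stress of 1 h gave few calls among the members. In DMSO 1 of 49 was called, Psmb11, against 11.2% of all genes (7.1% higher, 4.11% lower), and in SFN again only Psmb11, against 9.52% (5.94% higher, 3.58% lower). In Nrf2-/- cells it was Psmb11 as well, against 7.17% (4.36% higher, 2.81% lower). Psmb11 had 0 to 10 counts in isosmotic libraries, so it passed the filter on low counts through its stressed libraries. Its calls under stress therefore rest on the values that let it in and lend no support. At an unadjusted p under 0.05 there were 3, 2 and 10 of 49 members, against 4611, 4234 and 3987 of 19509 genes. DESeq2 called 2, 1 and 3 members. The median member log2 fold change was -0.15 in DMSO, 0.07 in SFN and 0.12 in Nrf2-/- cells. Without the Nrf2-/- 1 h pair, 10 members were called in DMSO, 2 higher (Psmb11, Psme4) and 8 lower, among them Psma3, Psma4, Psma6 and Psma7, and the count was the same without either of the pair alone. The SFN call of Psmb11 was lost without any 1 of 10 WT libraries and held without the other 6. In Nrf2-/- cells the count turned on its own 1 h pair. Without replicate 1 there were 15 calls, 5 higher and 10 lower, and without replicate 2 there were 25, 24 higher and 1 lower, while without either isosmotic library there was none.

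**Figure D4:**
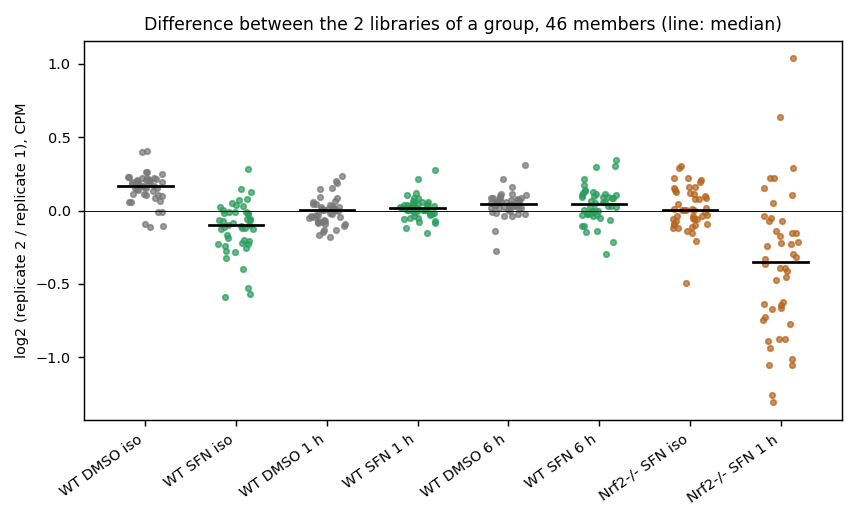
Log2 ratio of replicate 2 to replicate 1 (CPM) for 46 members in each of the 8 groups, with a black line at the median and Psmb8, Psmb9 and Psmb11 left out. The Nrf2-/- 1 h group spreads from below -1 to above 1, far wider than any other group.

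The 2 Nrf2-/- libraries at 1 h differed in the members themselves. Over the 49 tested members the median log2 difference was -0.39 (replicate 2 minus replicate 1), and 8 were higher in replicate 2. Psmb3 had 291 and 141 CPM, and Psmb6 202 and 100 CPM, whereas the long Psme4 had 264 and 543 CPM and Psmd1 365 and 568 CPM. Over 19017 genes the same difference had a Spearman correlation of 0.271 with exon length, described across genes that are not independent. In the isosmotic DMSO pair 42 of 49 members were higher in replicate 2 (median 0.17, correlation with length -0.208), and in the isosmotic SFN pair 10 were (median -0.11, correlation 0.187). Member genes were shorter than others, with a median of 2808 exonic bases against 3454. What part length has in the differences between groups was not tested beyond the fit with a length trend removed.

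SFN by itself gave few calls among the members with all 16 libraries, a count that depended on the fit. In isosmotic WT cells 2 of 49 were called, Psmb11 higher and Psma6 lower, against 2.84% of all genes (1.09% higher, 1.76% lower). Psma6, an alpha ring subunit, was at 184 and 207 CPM in DMSO and 153 and 152 CPM in SFN (log2 -0.36 ± 0.09, edgeR adjusted p = 0.0494). Its groups did not overlap, but the call held in only 2 of 16 leave-one-out fits, those without a Nrf2-/- 1 h library, and it was lost with the length trend removed (log2 -0.20). Psmb11 had 0 and 0 counts in DMSO and 10 and 8 in SFN. All 14 standard core subunits had a negative log2 fold change, from -0.36 to -0.01, and the median of the 49 members was -0.19 against 0.00 for all genes. With 1 of the 4 compared libraries left out no member was called, and with 1 of the other 10 outside the Nrf2-/- 1 h pair 1 was. Without that pair, or without either library of it, 16 were called, 4 higher (Psmb11, Psmd5, Psmd11, Psme4) and 12 lower. Those 12 were Psma3, Psma6, Psma7, Psmb2, Psmb4, Psmb7, Psmc1, Psmd8, Psme1, Psme2, Psme2b and Psmg4, and the same 16 were called in the 12 WT libraries alone. With the length trend removed only Psmb11 was. The 2.84% of all genes belongs to the fit with all 16 libraries, and shares for these other fits are not given here. In the same comparison 5 of 12 tested epithelial markers were lower (Cdh1, Krt18, Krt19, Krt7, Krt8) and none higher, with a median log2 fold change of -0.49, and the 15 of the list summed to 3022 and 3412 CPM in DMSO and 2028 and 2269 CPM in SFN. Their part in the members' shift was not tested.

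Psmd5 was at 88.8 and 92.6 CPM in DMSO and at 111.5 and 122 CPM in SFN, with no overlap, and did not pass with all libraries (log2 0.36 ± 0.11, edgeR adjusted p = 0.0951). In the 12 WT libraries its adjusted p was 0.000826, and with the length trend removed it was 0.147. Psmb5, Psmb6 and Psmb7 gave log2 fold changes of -0.30, -0.17 and -0.28, none of which passed.

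After 1 h or 6 h of stress no member was called between SFN and DMSO by edgeR with all 16 libraries. At 1 h 0.0923% of all genes were called. At an unadjusted p under 0.05 there were 2 members, against 669 of 19509 genes, and DESeq2 called 1 member (Psmd11). At 6 h 0.041% of all genes were called. At an unadjusted p under 0.05 there were 0 members, against 718 of 19509 genes, and DESeq2 called 0 members. Psmd11, a cap subunit, was at 165 and 166 CPM in DMSO and 199 and 207 CPM in SFN at 1 h (log2 0.29 ± 0.09, edgeR adjusted p = 0.863). In the 12 WT libraries its adjusted p was 0.0177. With only the 4 compared libraries 3 members were called higher at 1 h, namely Psmd11 (adjusted p = 7.72e-07), Psmd5 (log2 0.28, adjusted p = 5.37e-05) and Psmd7. Psmd5 was at 99.7 and 94.7 CPM in DMSO and 122 and 115 CPM in SFN, with no overlap. Without either library of the Nrf2-/- 1 h pair, 1 member was called. The largest absolute change at 6 h was that of Psmb11 at 0.46, from counts of 26 and 13 to 35 and 18. The checks of SFN action moved in the same comparisons. Of 8 Nrf2 check genes, 6 (Gclm, Hmox1, Nqo1, Slc7a11, Srxn1 and Txnrd1) were higher in isosmotic cells and again at 1 h. At 6 h 2 were (Gclm and Srxn1). In Nrf2-/- against WT cells under SFN, 7 of the 8 were lower in isosmotic medium and 6 at 1 h. Slc7a11 went the other way and was higher in both media.

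The difference between SFN effects was tested directly. Neither at 1 h nor at 6 h against isosmotic was any member called by edgeR, with 0.559% of all genes called at 1 h (0.487% higher, 0.0718% lower) and 0.759% at 6 h (0.595% higher, 0.164% lower). At an unadjusted p under 0.05 there were 4 and 3 members, against 1487 and 1721 of 19509 genes, and DESeq2 called 1 (Psmb11) and 0. Without the Nrf2-/- 1 h pair 2 members were called at 1 h (Psma6 and Psmb11), with 1 called without replicate 1 of it and 2 without replicate 2. The effect of 1 h of stress was also compared between Nrf2-/- and WT cells. At an unadjusted p under 0.05 there was 1 member, against 1433 of 19509 genes, and DESeq2 called 0. By edgeR 0 members were called, against 0.123% of genes. Without replicate 1 or replicate 2 of the Nrf2-/- 1 h pair there were 7 and 8.

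The lines were compared under SFN. With SFN in isosmotic medium 24 of 49 were called in Nrf2-/- against WT cells, 5 higher and 19 lower, and after 1 h 18 were, 6 higher and 12 lower. Of all genes 34.1% and 31.5% were called. The share lower was 38.8% and 24.5% of members against 18.4% and 16.2% of genes, and the median log2 fold change was -0.33 and -0.21 against 0.00 and -0.02. All 12 members lower at 1 h were also lower in isosmotic medium, and Psmc6, Psmd10, Psmd2 and Psme4 were higher in both. The 2 comparisons share no library, but both set the same line against WT and use 1 estimate of spread per gene. Their agreement is therefore not independent, and the same overlap over all genes was not counted. Of the 24 isosmotic calls, 9 were left without isosmotic SFN replicate 1, and 12 and 10 without Nrf2-/- isosmotic replicate 1 and 2, whereas 37 were called without either library of the Nrf2-/- 1 h pair. At 1 h the counts were 10 and 11 without a WT library of that comparison, 32 (6 higher, 26 lower) without Nrf2-/- 1 h replicate 1, 20 (13 higher, 7 lower) without its replicate 2, and 1 (Psmb8) when only the compared libraries were fitted. With the length trend removed, the split of higher and lower calls became 13 and 16 in isosmotic medium and 13 and 13 at 1 h. Of 12 tested markers of epithelium and collecting duct, 4 were higher in both media (Cdh1, Epcam, Krt7, Tfcp2l1), while Gata3 was lower in both and Scnn1a in isosmotic medium. The whole list of 15 summed to 3145 to 4249 CPM in Nrf2-/- cells against 2028 to 2829 CPM in the WT SFN libraries compared. The 4 proximal tubule markers summed to 2.50 to 5.71 CPM in Nrf2-/- cells against 9.06 to 12.7 CPM in WT at up to 1 h, and their part in the members' differences was not tested.

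The standard beta ring (7 tested members) and the ATPase base (6) together held 7 of the 19 lower calls in isosmotic medium. At 1 h they held 5 of the 12. No test compared these classes with the other members. Psmb4, a structural beta subunit, was at 358 and 335 CPM in WT and 227 and 225 CPM in Nrf2-/- cells in isosmotic SFN, and at 386 and 390 CPM and 295 and 185 CPM at 1 h. It fell by 0.62 and 0.69 on the log2 scale (both ± 0.16, edgeR adjusted p = 0.0069 and 0.00347), and the call held in each leave-one-out fit, where the 1 h value ran from -1.06 to -0.40. With only the compared libraries its adjusted p at 1 h was 0.175. Psmb6 was at 242 and 199 CPM and 134 and 129 CPM in isosmotic medium, and at 227 and 235 CPM and 202 and 100 CPM at 1 h. The latter call held in 1 of 16 leave-one-out fits. Psmb7 passed in isosmotic medium only, at 189 and 166 CPM and 127 and 117 CPM, and Psmb5 in neither, at 78.9 and 53.1 CPM and 54.1 and 46.9 CPM. Of 6 ATPases 4 were lower in isosmotic medium, namely Psmc2, Psmc3, Psmc4 and Psmc5. Psmc2 and Psmc3 held in each leave-one-out fit, whereas Psmc4 was lost in 14 of 16 and Psmc5 in 13. Psmc3 fell most, from 249 and 217 CPM to 138 and 130 CPM (log2 -0.80 ± 0.12). Its exons overlap those of Slc39a13 on the other strand. Psmc6 moved the other way, from 145 and 161 CPM to 183 and 193 CPM, a call lost in 10 of 16.

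The alpha ring had no lower call in either medium, and Psma6 (isosmotic, log2 0.28) and Psma4 (1 h, log2 0.41) were higher. Psmd1, a scaffold of the cap base, passed at 1 h only, with 281 and 275 CPM in WT and 365 and 568 CPM in Nrf2-/- cells (log2 0.75). Psmd2 was at 604 and 635 CPM in WT and 877 and 798 CPM in Nrf2-/- isosmotic cells, and at 700 and 696 CPM and 976 and 1013 CPM at 1 h. It rose by folds of 1.35 and 1.43 and held in each leave-one-out fit. Psmd5 stood at 111.5 and 122 CPM against 63.7 and 74.3 CPM, and at 122 and 115 CPM against 64.8 and 75.7 CPM at 1 h, a log2 difference of -0.76 ± 0.11 in each medium (edgeR adjusted p = 6.78e-05 and 7.73e-05). Its Nrf2-/- libraries were also below isosmotic WT DMSO cells (log2 -0.39 ± 0.11). Psmd6 was lower in both, by 0.64 and 0.45 on the log2 scale.

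Of the activators, Psme4, which encodes PA200, was higher. It stood at 178 and 217.5 CPM in WT and 339 and 317 CPM in Nrf2-/- isosmotic cells, and at 203 and 193 CPM and 264 and 543 CPM at 1 h (folds 1.66 and 2.04). In isosmotic medium its call was lost without SFN replicate 1 or either Nrf2-/- library. At 1 h the log2 value ran from 0.42 to 1.47 with 1 library left out, and the edgeR adjusted p was 0.156 with only the compared libraries. The interferon-induced 11S subunits were lower: Psme1 was at 57.5 and 48.2 CPM against 35.04 and 33.6 CPM, and Psme2 at 25.9 and 20.7 CPM against 11.9 and 14.7 CPM, in isosmotic medium. At 1 h Psme1 passed again (log2 -0.68) and Psme2 did not (-0.53, edgeR adjusted p = 0.0645). Psme3 and Psme2b did not pass in either medium. Psme1 exons overlap Emc9 and those of Psme2b overlap 9930111J21Rik1. Psmf1 was lower in isosmotic medium (log2 -0.35).

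Of the interferon-linked catalytic subunits, Psmb8 and Psmb9 stood at or near 0 counts in Nrf2-/- cells. Psmb8 had 22 and 29 counts in isosmotic WT SFN libraries and 3 and 0 in Nrf2-/- libraries, and at 1 h 55 and 57 against 3 and 0. WT cells were thus at least 6.8-fold and at least 16.7-fold higher against the floor of 3 counts per library. Psmb9 had 10 and 10 counts against 0 and 0, at least 2.73-fold higher in WT, and 14 and 12 against 4 and 2 at 1 h. Psmb10 was at 25.7 and 17.1 CPM against 12.9 and 11.9 CPM and did not pass (edgeR adjusted p = 0.061), nor at 1 h. Of 9 genes for MHC class I presentation and its interferon regulators 3 were lower in isosmotic medium (Irf1, Tap2, Tapbp) and 4 at 1 h (also Tap1), with none higher, against 18.4% and 16.2% of all genes lower. Tap2, a chain of the peptide transporter, had log2 fold changes of -2.45 ± 0.41 and -2.54 ± 0.39, and Irf1, a transcription factor of interferon responses, -0.97 ± 0.19 and -0.80 ± 0.20. At 6 h of stress in WT cells Irf1 was lower and Tapbp higher with both pretreatments.

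Assembly chaperones split again. Psmg4 was at 15.9 and 14.7 CPM in WT and 8.42 and 8.19 CPM in Nrf2-/- isosmotic cells (log2 -0.88 ± 0.21), and at 17.8 and 17.5 CPM and 15.3 and 8.33 CPM at 1 h, where the call held in 1 of 16 leave-one-out fits. Psmd10 was higher, at 21.9 and 20.1 CPM against 27.3 and 28.1 CPM, a call lost in 10 of 16 leave-one-out fits. Psmg2 was lower in isosmotic medium (log2 -0.39, lost in 12 of 16 leave-one-out fits). Psmg1, Psmg3 and Psmd9 did not pass. The same Nrf2-/- isosmotic libraries set against WT DMSO, a comparison that also changes SFN, gave 5 higher and 27 lower, with 38.8% of all genes called. Of the 12 epithelial markers 4 were higher there and 5 lower (Gata3, Krt18, Krt19, Krt8, Scnn1a). In that comparison Psmg4, Psme2, Psme1, Psmb6, Psmb4 and Psmc3 fell by 1.28, 1.37, 0.97, 0.91, 0.89 and 1.00 on the log2 scale. Its count was 18 without isosmotic DMSO replicate 2 and 21 without Nrf2-/- isosmotic replicate 1, and with the length trend removed the split was 13 and 22.

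Genes that work with the proteasome but lie outside the Psm symbols were described from a list of 16, of which 15 were tested. At 6 h in DMSO 5 were higher and 4 lower, and in SFN 4 and 4, against 45.9% and 47.6% of all genes called. Usp14, the deubiquitinase of the cap, was at 158 and 164 CPM and fell to 97.6 and 99.5 CPM in DMSO (log2 -0.71 ± 0.11), and Txnl1, which binds the cap, fell by 0.46. Zfand5, a proteasome-binding zinc finger protein, rose from 125 and 136 CPM to 249.5 and 244 CPM (log2 0.92 ± 0.15), and Zfand2a, a stress-induced partner of the cap, from 52.6 and 48.1 CPM to 91.4 and 85.3 CPM. In SFN these 4 were called in the same directions. In Nrf2-/- against WT cells in isosmotic SFN 5 were higher (Ubqln2, Uchl5, Usp14, Zfand2a, Zfand5) and Adrm1, a ubiquitin receptor of the cap, was lower (log2 -0.71 ± 0.17). Of all genes 15.7% were higher and 18.4% lower there. SFN against DMSO gave 0 in each of the 3 conditions.

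The NFE2L1 route was described over 8 genes. SFN in isosmotic medium raised 1, Ddi2, the protease that activates NFE2L1 (log2 0.43 ± 0.10), against 1.09% of all genes called higher. At 6 h Ngly1, which removes glycans from NFE2L1, fell by 1.17 and 1.69 on the log2 scale in DMSO and SFN, and Sel1l and Nploc4 were also lower in both. Ddi2 was higher at 6 h in DMSO (log2 0.31 ± 0.10), and in SFN its value of -0.25 did not pass (edgeR adjusted p = 0.0618). The 8 genes thus gave 1 higher and 3 lower in DMSO and 0 and 3 in SFN. Of all genes 45.9% and 47.6% were called, so these counts do not set the route apart. Nfe2l1 itself did not pass at 6 h, with 282 and 277 CPM isosmotic and 274 and 272 CPM at 6 h in DMSO. Among 6 genes of ubiquitin and its activation, Ubb fell at 6 h with both pretreatments (log2 -0.76 each), and the activating enzymes Uba1 and Uba6 were higher in Nrf2-/- cells in both media (log2 0.83 and 1.32 in isosmotic medium).

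Patterns over the 8 groups were described by the correlation of each gene's group means with the mean pattern of the 14 standard core subunits. The core pattern was highest in isosmotic DMSO cells and lowest in Nrf2-/- isosmotic cells. Of 32 members outside the core 19 had r over 0.5 and 6 were negative. Psmd8 (0.97), Psme2 (0.90), Psmg4 (0.86) and Psmc4 (0.85) were most like it, and Psme4 (-0.72), Psmd2 (-0.53) and Psmd1 (-0.48) least. Within the core Psma1 (-0.36) and Psma4 (-0.08) were negative, although their own values enter the mean. Psmb8, Psmb9 and Psmb11 were left out for low counts. Outside the members the closest were Polr2g (0.99), Ccdc12 (0.98), Chchd4 (0.97), Ostc (0.97) and Ncoa5 (0.97). All these values rest on 8 means of 2 libraries each, among them the pairs whose replicates differed with exon length as described above.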

How the data were processed

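The authors deposited 16 tables of raw counts per gene, 1 per library, from RNA of mIMCD3 cells. Per the labels, reads were aligned to mm10 with Bowtie2 and counted with featureCounts, whereas the study's methods name Hisat2 as aligner. Versions and the strand setting are not given in the sources used here. A protocol label speaks of primary tubular cells and all others of mIMCD3. Totals ran from 34484296 to 50774875 counts. Of the counts from 1 to 10, 58.0% to 68.5% were even, so low counts may step by pairs, and intervals from counts cover counting error only. Lines with no gene name (2 in isosmotic DMSO replicate 1 and 3 in isosmotic Nrf2-/- replicate 1) were left out.

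Members and gene lists were chosen with earlier results of these data known. Genes passing filterByExpr (19509) were fitted over all 16 libraries and 8 groups with edgeR 4.0.16 (TMM, quasi-likelihood test, R 4.3.3), with Benjamini-Hochberg adjustment over all genes and calls at an adjusted p under 0.05. The SE is the log2 fold change divided by the square root of F. Alternatives were DESeq2 1.42.0, RLE scaling, other filters, a replicate block, subsets of libraries, each library left out, and an edgeR offset that removed each library's lowess trend (span 0.3) of log2 CPM (prior count 2) on exon length. The fitting was tested on simulated data. CPM used TMM library sizes. Named in full were the called members of a comparison (where more than 6 were called, the 3 with the largest change in each direction) and, always, the catalytic, activator, inhibitor and chaperone members and Psmc3ip. Psmd2, Psmd12, Psmb3, Psmb4, Psmc3, Psmc6, Psmd1 and Psmd11 were in part chosen after their values were seen. The p-values set a difference between groups against the spread between replicates. That spread is pooled per gene over all groups in the fit, with 2 replicates each, and moderated across genes.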

Additional observations from a re-analysis of the deposited data

How the results depend on the processing

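Counts below are members called of those tested, without the share of all genes called in the same fit. For SFN against DMSO in isosmotic medium, 2 with all libraries became 5 by DESeq2, 1 with DESeq2-type (RLE) size factors, 16 without both Nrf2-/- 1 h libraries, 16 in the 12 WT libraries and 1 with the length trend removed, and at 1 h the count of 0 became 1 by DESeq2, 3 with only the compared libraries, 1 without that pair and 1 in WT libraries. For 1 h of stress in DMSO 1 became 2 by DESeq2, 0 with at least 10 counts in every library, 3 with only the compared libraries, 10 without the pair, 6 in WT libraries and 2 with the length trend removed. In SFN 1 became 0 with at least 10 counts, 3 with only the compared libraries and 3 in WT libraries. In Nrf2-/- cells 1 became 3 by DESeq2, 3 with no filter, 0 with at least 10 counts and 0 with only the compared libraries. For 6 h, 20 in DMSO became 36 without the pair and 32 in WT libraries, and 21 in SFN became 11 with at least 10 counts. For Nrf2-/- against WT, 24 in isosmotic medium became 37 without the pair, and 18 at 1 h became 1 with only the compared libraries. For the SFN effect at 1 h minus isosmotic, 0 became 1 by DESeq2, 1 with no filter, 1 with only the compared libraries, 2 without the pair, 2 in WT libraries and 1 with the length trend removed. The length fit, chosen after seeing the data, turned the log2 fold change of Psmc1 in Nrf2-/- SFN against WT DMSO cells to 0.000669. With at least 10 counts in every library Psmb11 was no longer tested, as it had 0 counts in isosmotic DMSO. It was the only member called at 1 h of stress with all libraries, so the counts of 0 under that filter reflect its removal. The cause of the other shifts was not tested.

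With 1 library left out, the counts ranged from 0 to 16 for SFN in isosmotic medium, 0 to 1 at 1 h and 0 to 0 at 6 h. For 1 h of stress they ranged from 1 to 10 in DMSO, 0 to 1 in SFN and 0 to 25 in Nrf2-/- cells, and for 6 h from 14 to 38 in DMSO and 12 to 25 in SFN. For Nrf2-/- against WT they ranged from 9 to 37 in isosmotic medium, 10 to 32 at 1 h and 18 to 39 against WT DMSO. For the differences of effects they ranged from 0 to 2 (SFN, 1 h), 0 to 0 (SFN, 6 h) and 0 to 8 (stress between lines).

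With the replicate number as a block, the call count for SFN in isosmotic medium was 1 and all other counts stayed within 1.5 times those without it. Deviations of same-numbered libraries correlated at 0.123 at most, so the numbers were not taken as pairs.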
